A study of Mus musculus with 20 samples.

Results

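The 10 genes described here mark the passage between fibroblast-like and epithelial states, and were followed through the reprogramming of mouse embryonic fibroblasts with and without an shRNA against Ddx10. They are the epithelial genes Cdh1, Epcam and Esrp1, the N-cadherin gene Cdh2, and the transcription factor genes Snai1, Snai2, Zeb1, Zeb2, Twist1 and Twist2. Members were chosen by name, as rows of the expression table whose gene name equals one of these symbols. All 10 were found among the 15757 genes of the table, with 3 on the epithelial side and 7 on the mesenchymal side.

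In an epithelium, E-cadherin (Cdh1) joins neighbouring cells at adherens junctions through catenins, EpCAM is a surface adhesion protein, and Esrp1 sets epithelial splice forms. In the epithelial to mesenchymal transition, Snail, Zeb and Twist factors repress or replace this programme, Cdh1 gives way to Cdh2, and cells become motile. Fibroblasts that are reprogrammed to pluripotency pass through the reverse change, the mesenchymal to epithelial transition, as an early step, and pluripotent cells keep Cdh1 and Epcam.

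All libraries came from OG2 mouse embryonic fibroblasts at passage 2, which carry a green fluorescent reporter driven by Oct4 regulatory sequence. The cells were infected with retroviruses for Oct4, Sox2, Klf4 and Myc and grown in iCD1 medium. The control arm also carried an shRNA against luciferase, and the knockdown arm one against Ddx10, which encodes an RNA helicase of the DEAD-box family known for its part in ribosome assembly. RNA was taken at days 0, 1, 3, 5 and 7 from both arms, with 2 libraries in each of the 10 groups. The titles name the factors (OSKM) and an shRNA in all 10 groups, day 0 included, and how day 0 lies in time to the infections is not given in the sources used here. No group without the factors was used here. The knockdown titles name Ddx10 as the target, the design text speaks of shRNAs in the plural, and no label says which shRNA a library carries or names a rescue. Replicates are described as biological in the design text, without a label that ties each to its own culture, so a p-value here covers the spread among the libraries, which may be technical. In bulk RNA, fewer cells of a type and less RNA per cell cannot be told apart.

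Ddx10 was lower in both knockdown libraries than in both control libraries on every day, at 255 to 530.0 against 499.9 to 921 normalized read counts. The log2 difference was -0.999 (SE 0.052) as the mean of all days. By day it was -0.69, -1.58, -1.31, -0.79 and -0.62 at days 0, 1, 3, 5 and 7. The libraries summed to 15.7 M to 21.3 M normalized read counts, and from the spacing of their low values the depth was estimated as 12.0 M to 23.7 M reads. On this scale 1 read was worth 0.67 to 1.45. Replicates correlated at r = 0.981 to 0.989 across genes, and those of the control at day 1 differed most. Of 9 fibroblast markers all were present in every group, with a summed level of 418968 to 442428 in the control at day 0 and 92963 to 95518 at day 7. Lyz2, a defining macrophage gene, stood at a mean of 2076 in the control at day 0 and at 10.1 at day 7. The 14 measured macrophage markers summed to 2629 to 3931 in the control at day 0 and to 1228 to 1247 at day 7. The sum thus fell by a smaller share than Lyz2 did.

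The epithelial genes went from near nothing to high levels in both arms. Cdh1 (E-cadherin, ENSMUSG00000000303, protein coding, mm10 chromosome 8, 106603351 to 106670246, plus strand) read 40.2 and 20.04 normalized read counts in the control libraries at day 0, 389.8 and 396 at day 1, 2680.5 and 3083 at day 3, 9014 and 8282 at day 5, and 8519.8 and 8074 at day 7. In the knockdown libraries Cdh1 read 40.7 and 22.8, 319 and 334, 1273 and 1389, 4514 and 4191, and 5317 and 5049 on the same days. The arms overlapped at day 0, and from day 1 onward both knockdown libraries lay below both controls. The control libraries of days 5 and 7 overlapped, while the knockdown libraries of day 7 lay above those of day 5. On the log2(value + 1) scale these steps were -0.06 and 0.25, and they were not tested.

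The log2(value + 1) change of Cdh1 from day 0 in the control was 3.74 at day 1, 6.61 at day 3, 8.20 at day 5 and 8.14 at day 7 (SE 0.26 each, limma adjusted p from 5.68e-08 to 4.13e-12). In the knockdown arm it was 3.38, 5.40, 7.11 and 7.36 (adjusted p from 2.05e-07 to 1.59e-11). On the linear scale, the Cdh1 gain at day 3 was 34.5% of the full control gain at day 7 in the control and 15.7% in the knockdown. Between arms, Cdh1 was lower in the knockdown at day 3 (log2 -1.11, SE 0.26, adjusted p = 0.0295) and day 5 (-0.99, SE 0.26, adjusted p = 0.0308), at 46.2% and 50.3% of the control mean. At day 7 the level was 62.5% of the control, with a log2 difference of -0.68 (95% interval -1.24 to -0.12) that did not pass the threshold (adjusted p = 0.167). The mean over all days was -0.59 (SE 0.12, adjusted p = 0.0034). Each single-day call was lost when any 1 of its 4 libraries was left out (adjusted p 0.0765 to 0.171 at day 3 and 0.0889 to 0.182 at day 5), whereas the mean of all days kept its call without any single library.

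The replicates of Cdh1 at day 0 differed by about as much as the arms did later, and all groups shared 1 estimate of spread. When all day 0 libraries were left out of the fit, a choice made after that spread was seen, the difference of Cdh1 at day 7 passed the threshold (adjusted p = 0.000425). When all day 1 libraries were left out, a choice also made after their spread was seen, the day 5 call of Cdh1 was lost (adjusted p = 0.0592).

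Epcam (ENSMUSG00000045394, protein coding, mm10 chromosome 17, 87635979 to 87651129, plus strand), whose protein also signals after cleavage of its membrane part, read 5.26 and 1.01 in the control at day 0, 40.5 and 21.7 at day 1, 582 and 610.0 at day 3, 2814 and 2794 at day 5, and 3945 and 3906 at day 7. In the knockdown Epcam read 2.07 and 3.30, 27.5 and 25.9, 362 and 358, 1639.7 and 1634, and 2975 and 2807. The arms overlapped at days 0 and 1, and both knockdown libraries lay below both controls at days 3, 5 and 7. The knockdown libraries of day 7 stood beside the control libraries of day 5, with ranges that overlapped.

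The rise of Epcam from day 0 to day 7 was 10.11 on the log2(value + 1) scale in the control (SE 0.38, limma adjusted p = 1.05e-11) and 9.64 in the knockdown (SE 0.38, adjusted p = 2.43e-11). The knockdown level was 60.4%, 58.4% and 73.7% of the control mean at days 3, 5 and 7. The log2 differences were -0.72 (95% interval -1.54 to 0.09, adjusted p = 0.322), -0.78 (-1.59 to 0.04, adjusted p = 0.251) and -0.44 (-1.25 to 0.37, adjusted p = 0.618), and none passed the threshold. Within a day the Epcam replicates lay close together from day 3 on, and far apart in log terms at day 0, where the control libraries stood at a few reads. Fitted on the compared libraries alone, the differences passed at day 3 (adjusted p = 0.00708), day 5 (0.000819) and day 7 (0.00154).

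Of the 5 members with a RefSeq promoter window, 2 held the E-box letters CACCTG or the reverse complement CAGGTG, to which Snail and Zeb factors are known to bind. The windows run from 250 bases before to 50 bases after the start (GRCm38.p6), and both are printed because they let the letters be seen in an epithelial gene and in a repressor gene whose levels moved in opposite directions. The Epcam window is chr17:87635729-87636028 on the plus strand and the Snai1 window is chr2:167537945-167538244 on the plus strand, written 5′ to 3′ with the matches in capitals.
Epcam: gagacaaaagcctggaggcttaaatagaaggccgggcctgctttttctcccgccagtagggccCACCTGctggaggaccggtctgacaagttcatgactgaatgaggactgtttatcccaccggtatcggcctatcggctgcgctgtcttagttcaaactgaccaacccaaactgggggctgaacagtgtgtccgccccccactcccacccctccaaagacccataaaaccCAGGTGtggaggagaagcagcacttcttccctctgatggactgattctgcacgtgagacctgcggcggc
Snai1: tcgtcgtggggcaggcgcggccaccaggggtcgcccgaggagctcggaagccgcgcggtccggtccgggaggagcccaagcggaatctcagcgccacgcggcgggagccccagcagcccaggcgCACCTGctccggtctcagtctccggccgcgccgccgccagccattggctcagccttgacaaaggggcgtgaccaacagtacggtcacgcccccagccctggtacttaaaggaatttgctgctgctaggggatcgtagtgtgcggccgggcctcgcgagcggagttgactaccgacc
In Epcam the matches begin 187 and 19 bases before the start, and in Snai1 the match begins 126 bases before it. The 6 windows of Twist1, Twist2 and Zeb2 did not contain these letters. Counted by window, 2 of the 8 member windows contained them, beside 20.2% of 32851 windows of 300 bases. No binding was measured, so a match describes the sequence alone. Cdh1, Cdh2, Esrp1, Snai2 and Zeb1 had no window in the table used.

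Esrp1 (ENSMUSG00000040728, protein coding, mm10 chromosome 4, 11331933 to 11386783, minus strand), which directs epithelial splicing of transcripts such as those of Fgfr2 and Cd44, came on last. It read 2.25 and 0 in the control at day 0, 1.73 and 0 at day 1, 3.63 and 3.87 at day 3, 76.6 and 59.1 at day 5, and 222 and 176 at day 7. In the knockdown Esrp1 was listed at 0 in both libraries of days 0 and 1, then read 0 and 3.08, 23.2 and 35.0, and 95.6 and 116. At days 3, 5 and 7 both knockdown libraries lay below both controls, although at day 3 these levels amount to a few reads.

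Esrp1 passed the test against day 0 at day 5 (log2 5.24, SE 0.65, limma adjusted p = 2.90e-06) and day 7 (6.78, SE 0.65, adjusted p = 1.36e-07) in the control, and on the same days in the knockdown (adjusted p = 8.04e-06 and 1.95e-07). At day 3 it did not, with a log2 change of 1.40 in the control (adjusted p = 0.0718). The knockdown means were 42.9% and 53.2% of the control at days 5 and 7, with log2 differences of -1.21 (95% interval -2.60 to 0.18, adjusted p = 0.304) and -0.90 (-2.29 to 0.49, adjusted p = 0.537). Between arms no single day passed the threshold. The differences at days 0 and 1 were -0.85 and -0.73. On those days the control libraries read 2.25 and 0, and 1.73 and 0, and the knockdown libraries 0. The mean over all days, these included, was -0.98 (SE 0.29, limma adjusted p = 0.0305). That call was lost with a pseudocount of 0.1, where the value was -1.86 (adjusted p = 0.0915), and without any of 9 single libraries of the 20, with adjusted p up to 0.0684.

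**Figure D1:**
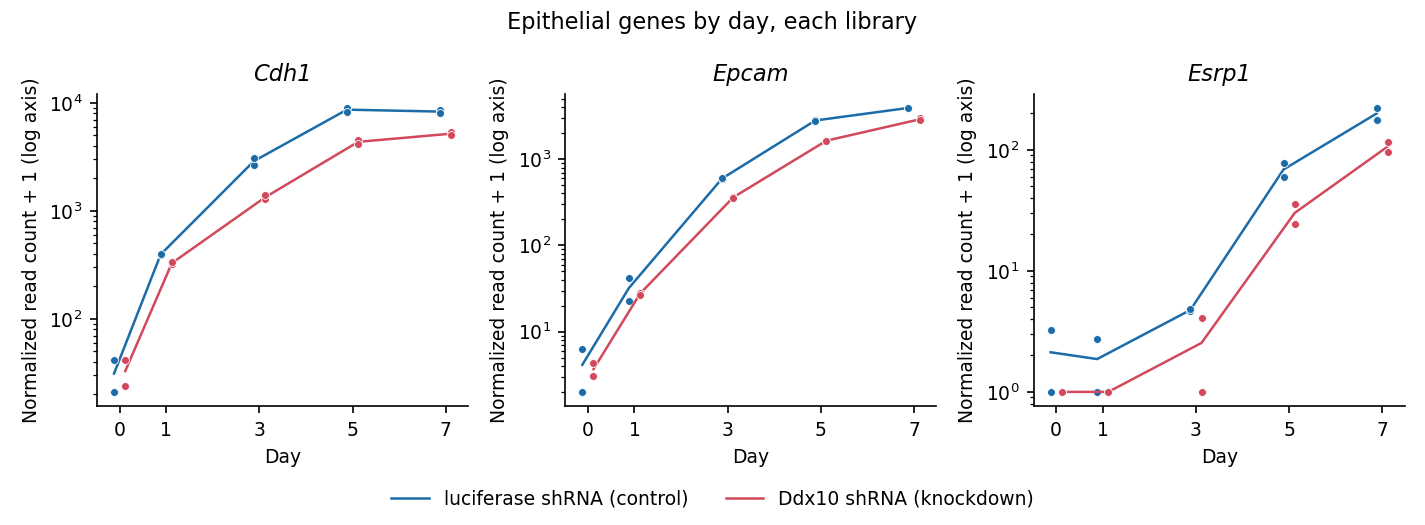
Normalized read count plus 1 on a log axis against day for Cdh1, Epcam and Esrp1; points are libraries, and lines join the means of 2 libraries for the control and the knockdown, drawn slightly apart. Cdh1 and Epcam were already above their day 0 levels at day 1 and Esrp1 from day 5, and at days 3, 5 and 7 both knockdown points lie below both control points in all 3 panels.

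The N-cadherin gene Cdh2 (ENSMUSG00000024304, protein coding, mm10 chromosome 18, 16588877 to 16809246, minus strand) declined but was never lost. It read 4691 and 4429 in the control at day 0, 4966 and 4717 at day 1, 3378 and 3336 at day 3, 2686 and 2821 at day 5, and 2663 and 2808 at day 7. In the knockdown Cdh2 read 4833 and 4625, 4879 and 4598, 3968 and 4079, 3080.4 and 3135, and 3068 and 3018. The arms overlapped at days 0 and 1, and at days 3, 5 and 7 both knockdown libraries lay above both controls.

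At day 1 both control libraries of Cdh2 lay above those of day 0, with a log2 difference of 0.09 (95% interval -0.04 to 0.21, adjusted p = 0.240) that did not pass the threshold but did with quantile scaling (0.24, adjusted p = 0.00426). In the knockdown the difference at day 1 was 0.00 (95% interval -0.12 to 0.13). Cdh2 had fallen by 0.44 at day 3, 0.73 at day 5 and 0.74 at day 7 in the control (SE 0.06 each, limma adjusted p from 8.83e-06 to 1.77e-08), and by 0.23 (adjusted p = 0.00343), 0.61 and 0.64 in the knockdown. At day 7 the level was 60.0% of day 0 in the control and 64.4% in the knockdown. Quantile scaling moved the median of all genes by -0.13 to -0.17 for the control at days 3 to 7 against day 0. With it the fall at day 7 was smaller, with -0.40 for the control and -0.34 for the knockdown, and the knockdown at day 3 no longer differed from day 0 (-0.02, adjusted p = 0.749). Between arms Cdh2 was higher in the knockdown at day 3, at 120% of the control (log2 0.26, SE 0.06, adjusted p = 0.0229), and over the mean of all days (0.12, SE 0.03, adjusted p = 0.0051). At days 5 and 7 the differences of 0.17 (95% interval 0.05 to 0.30, adjusted p = 0.0873) and 0.15 (0.03 to 0.28, adjusted p = 0.166) missed the threshold. The day 3 call was lost without any 1 of its 4 libraries (adjusted p 0.0808 to 0.149).

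The balance of the cadherin genes was set out per kilobase of merged exons, so that the pair could be compared. In the control, Cdh2 exceeded Cdh1 138-fold at day 0 and 10.98-fold at day 1, the genes were about level at day 3 (1.04-fold), and Cdh1 exceeded Cdh2 3.51-fold at day 5 and 3.39-fold at day 7. In the knockdown, Cdh2 exceeded Cdh1 134-fold, 12.9-fold and 2.70-fold at days 0, 1 and 3, and Cdh1 exceeded Cdh2 1.57-fold and 1.90-fold at days 5 and 7. Both arms thus crossed from Cdh2 to Cdh1 between their first and last days, the control at about day 3 and the knockdown between days 3 and 5. These ratios are descriptions and were not tested.

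**Figure D2:**
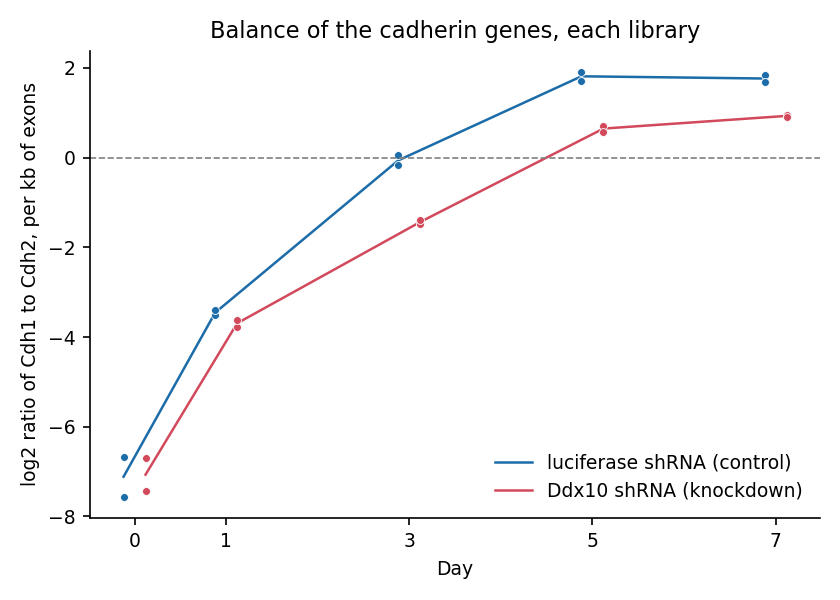
Log2 ratio of Cdh1 to Cdh2 per kilobase of merged exons against day; points are libraries, lines join the means of 2 libraries, and the dashed line marks equal levels. The control stood at -0.06 at day 3 and 1.76 at day 7, and the knockdown at -1.43 and 0.93.

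Among the members that fell, Snai1 had the largest log2 change from day 0 on every later day in both arms, a ranking that was not tested. Snai1 (Snail, a zinc finger repressor of Cdh1, ENSMUSG00000042821, protein coding, mm10 chromosome 2, 167538195 to 167542814, plus strand) read 828 and 712 in the control at day 0, 209 and 212 at day 1, 177 and 131 at day 3, 105 and 97.4 at day 5, and 85.0 and 103 at day 7. In the knockdown Snai1 read 764 and 769, 209 and 244, 164 and 149, 145 and 136, and 107 and 121.4. The arms overlapped at days 0, 1 and 3, and both knockdown libraries lay above both controls at days 5 and 7. The change from day 0 was -1.86 at day 1 and -3.03 at day 7 in the control (SE 0.15 each, limma adjusted p = 7.16e-08 and 5.63e-11) and -1.76 and -2.74 in the knockdown (adjusted p = 1.89e-07 and 2.59e-10). The arms differed by 0.47 at day 5 (95% interval 0.15 to 0.80, adjusted p = 0.0706) and 0.28 at day 7 (-0.05 to 0.61, adjusted p = 0.364), neither past the threshold. In the interval from day 0 to day 1 the summed level of 14 macrophage markers in the control went from 2629 to 3931 down to 504 to 593, and in the knockdown from 3971 to 3998 down to 583 to 685. At day 7 the sum was higher than at day 1, at 1228 to 1247 in the control and 1435 to 1520 in the knockdown. In the control 2 of the 14 markers were at 0 in both libraries at day 1 and 4 at day 7. In the knockdown 0 were at day 1 and 2 at day 7. The sum thus did not follow every marker. Snai1 was lower at day 7 than at day 1 in both arms. The part of these markers in the fall of Snai1 was not tested.

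Snai2 (Slug, the related repressor that also serves neural crest cells, ENSMUSG00000022676, protein coding, mm10 chromosome 16, 14705852 to 14709385, plus strand) fell more evenly. It read 692 and 802 in the control at day 0, 627 and 499 at day 1, 361 and 365 at day 3, 229.7 and 243 at day 5, and 164 and 197 at day 7. In the knockdown Snai2 read 724 and 612, 546 and 525, 406 and 423, 334 and 313, and 178 and 260.3. Both knockdown libraries lay above both controls at days 3 and 5 and overlapped them on the other days. From day 0 to day 7 Snai2 changed by -2.05 in the control (SE 0.16, limma adjusted p = 1.10e-08) and -1.62 in the knockdown (SE 0.16, adjusted p = 2.32e-07). The difference between arms at day 5 was 0.45 (95% interval 0.11 to 0.79, adjusted p = 0.0992). Per kilobase of exons, Snai1 stood above Snai2 at day 0, at a ratio of 1.30 in the control and 1.44 in the knockdown, and below it from day 1 on, at 0.47 to 0.66 in all later groups.

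Zeb1 (a zinc finger homeodomain repressor held down by miR-200 in epithelia, ENSMUSG00000024238, protein coding, mm10 chromosome 18, 5591860 to 5775467, plus strand) declined by less. It read 1337 and 1129 in the control at day 0, 1315 and 1208 at day 1, 946 and 1060.4 at day 3, 720.1 and 733 at day 5, and 710.2 and 657 at day 7. In the knockdown Zeb1 read 1351 and 1385, 1228 and 1082, 1006 and 1061, 840.3 and 895, and 805 and 812. Both knockdown libraries lay above both controls at days 0, 5 and 7. Zeb1 changed by -0.85 at day 7 in the control (SE 0.09, limma adjusted p = 6.97e-07) and by -0.76 in the knockdown (SE 0.09, adjusted p = 3.11e-06). The arms differed by 0.25 at day 5 (95% interval 0.06 to 0.45, adjusted p = 0.113) and 0.24 at day 7 (0.04 to 0.44, adjusted p = 0.164), short of the threshold.

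Its paralog Zeb2 (ENSMUSG00000026872, protein coding, mm10 chromosome 2, 44983632 to 45117395, minus strand) ended the control course near its starting level. Zeb2 read 1461 and 1339.8 in the control at day 0, 1458 and 1725 at day 1, 1085 and 1206 at day 3, 1403 and 1344 at day 5, and 1492 and 1537 at day 7. In the knockdown Zeb2 read 1766 and 1736, 1679 and 1615, 1423 and 1504, 1474 and 1352, and 1494 and 1517. Both knockdown libraries lay above both controls at days 0 and 3, and the arms overlapped on the other days. In the control Zeb2 was lower at day 3 than at day 0 (log2 -0.29, SE 0.08, limma adjusted p = 0.0069) and at day 7 differed from day 0 by 0.11 (95% interval -0.07 to 0.30, adjusted p = 0.236). In the knockdown, which began higher, Zeb2 fell by 0.22 at day 7 (adjusted p = 0.0331), a call that was lost without any 1 of its 4 libraries (adjusted p 0.0799 to 0.116) and with quantile scaling (-0.11, adjusted p = 0.261). With quantile scaling the control at day 7 was above day 0 (0.24, adjusted p = 0.0170). The control call of day 3 was lost without control replicate 1 of day 0 (adjusted p = 0.0688) or of day 3 (0.0828).

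Zeb2 was higher in the knockdown at day 3 (0.35, SE 0.08, limma adjusted p = 0.0277) and over the mean of all days (0.15, SE 0.04, adjusted p = 0.0115). At day 0 the difference of 0.32 (SE 0.08) lay at the threshold, with an adjusted p of 0.04998, and that call was lost under 10 of 14 alternatives. The day 3 call was lost without any 1 of its 4 libraries (adjusted p 0.0647 to 0.179). Per kilobase, the ratio of Zeb1 to Zeb2 in the control went from 1.73 at day 0 to 1.04 at day 5 and 0.89 at day 7, and in the knockdown from 1.54 to 1.215 and 1.06. The antisense gene Zeb2os, which overlaps the Zeb2 locus, read 3.00 to 23.9 in all 20 libraries. Whether the counting used strand is not given in the sources used here, so reads of this pair cannot be told apart.

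Twist1 and Twist2, basic helix-loop-helix factors of mesoderm and skull mesenchyme, moved apart from each other. Twist1 (ENSMUSG00000035799, protein coding, mm10 chromosome 12, 33957671 to 33959829, plus strand) read 1548 and 1588 in the control at day 0, 2206 and 2172 at day 1, 1899 and 1717 at day 3, 1954 and 2173 at day 5, and 1456 and 1432 at day 7. In the knockdown Twist1 read 1343 and 1362, 2030.3 and 2048, 1981 and 1915, 1885 and 2075, and 1755 and 1604. Both knockdown libraries lay below both controls at days 0 and 1 and above them at days 3 and 7. In the control Twist1 was above day 0 by 0.48 at day 1, 0.20 at day 3 and 0.39 at day 5 (SE 0.07 each, limma adjusted p = 5.51e-05, 0.0255 and 0.000217), and at day 7 the difference was -0.12 (95% interval -0.28 to 0.04, adjusted p = 0.166). The day 3 call was lost in a fit on the compared libraries (adjusted p = 0.0776) and without control replicate 1 of day 0 (0.101), replicate 2 of day 0 (0.0533) or replicate 1 of day 3 (0.220). In the knockdown it was 0.59, 0.53, 0.55 and 0.31 above day 0, all past the threshold (adjusted p from 8.90e-06 to 0.0017). The change from day 0 to day 7 differed between the arms by 0.43 (SE 0.11, adjusted p = 0.0259), with the direct difference between arms at 0.22 (95% interval 0.06 to 0.38, adjusted p = 0.111) at day 7 and -0.21 (-0.37 to -0.05, adjusted p = 0.123) at day 0. That call was lost without any 1 of 7 of its 8 libraries (adjusted p 0.0517 to 0.0997), all but knockdown replicate 2 of day 7.

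Twist2 (ENSMUSG00000007805, protein coding, mm10 chromosome 1, 91801461 to 91848028, plus strand) read 1284 and 1290.4 in the control at day 0, 1138 and 801 at day 1, 1181 and 1052 at day 3, 532 and 644 at day 5, and 318 and 330.3 at day 7. In the knockdown Twist2 read 1084 and 1024, 891 and 729, 1087 and 1141, 679 and 842, and 496 and 544. The knockdown libraries lay below the controls at day 0, overlapped them at days 1 and 3, and lay above them at days 5 and 7. At day 3 Twist2 differed from day 0 by -0.21 in the control (limma adjusted p = 0.236) and by 0.08 in the knockdown (0.663). Twist2 fell by 1.99 from day 0 to day 7 in the control (SE 0.15, limma adjusted p = 7.03e-09) and by 1.02 in the knockdown (SE 0.15, adjusted p = 2.01e-05), and these changes differed by 0.97 (SE 0.21, adjusted p = 0.0148), a call lost without control replicate 1 (adjusted p = 0.0632) or knockdown replicate 2 (0.0739) of day 7. At day 7 Twist2 was higher in the knockdown at 160% of the control (0.68, SE 0.15, adjusted p = 0.0127). That call was lost without control replicate 1 (adjusted p = 0.104), control replicate 2 (0.0605) or knockdown replicate 2 (0.138) of day 7. Per kilobase the ratio of Twist1 to Twist2 in the control went from 2.37 at day 0 to 8.69 at day 7, and in the knockdown from 2.505 to 6.32. How reads that fit both genes of such a pair were assigned is not given in the sources used here.

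**Figure D3:**
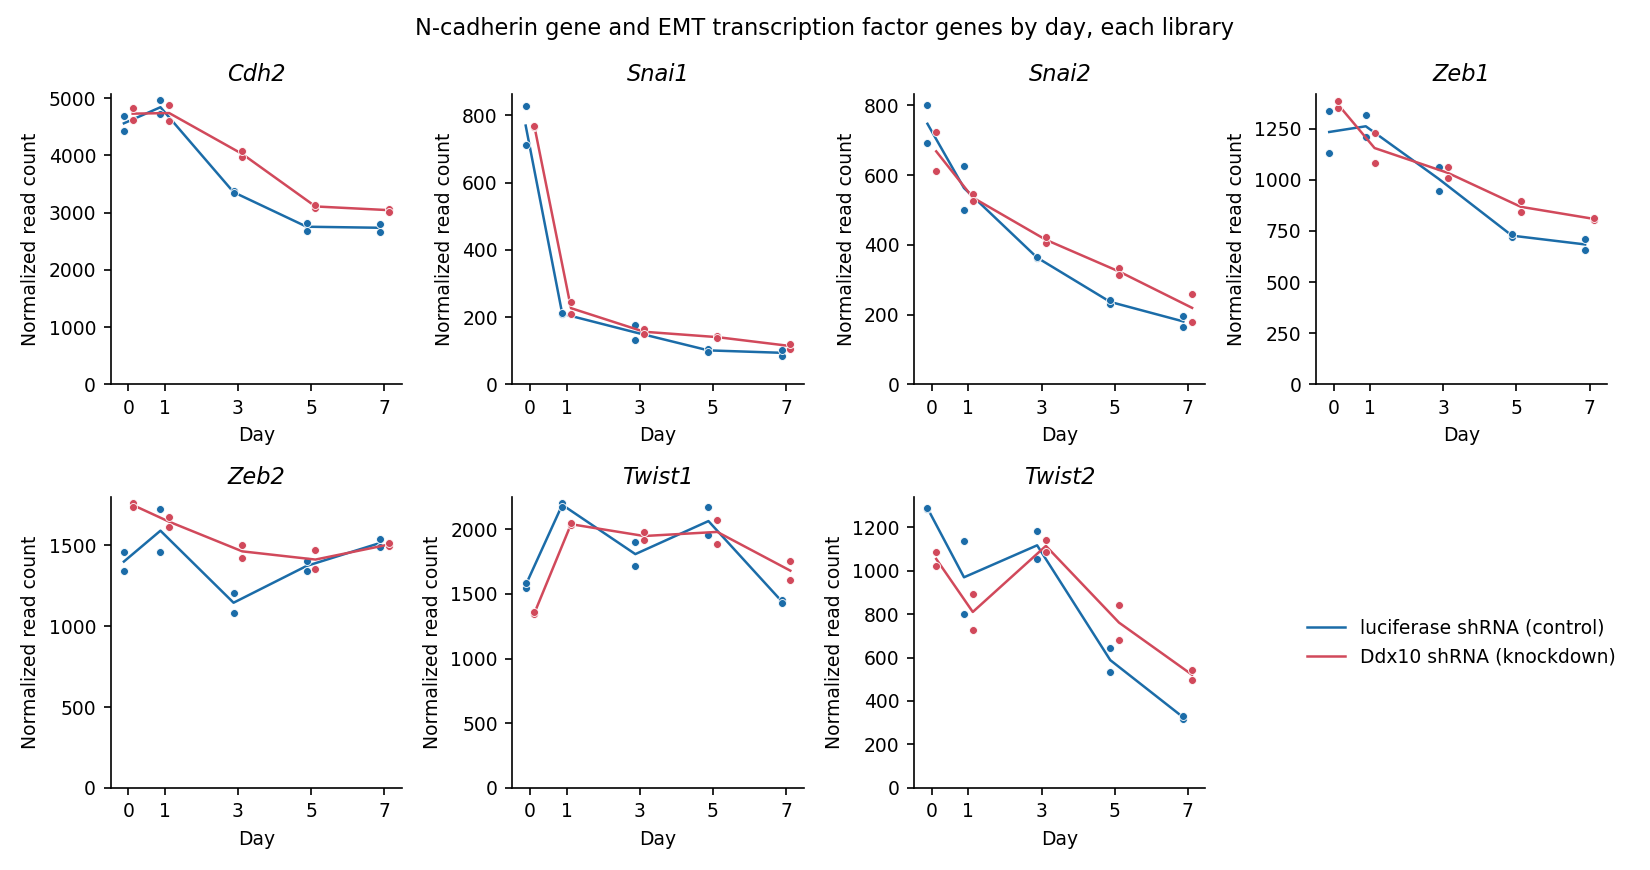
Normalized read count against day for Cdh2 and the 6 transcription factor genes; points are libraries, lines join the means of 2 libraries, and every axis starts at 0. In the control Snai1 falls to about 210 by day 1, Snai2 and Twist2 are also lower by day 1, Cdh2 and Zeb1 are lower from day 3, and Zeb2 and Twist1 end near their day 0 levels.

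**Figure D4:**
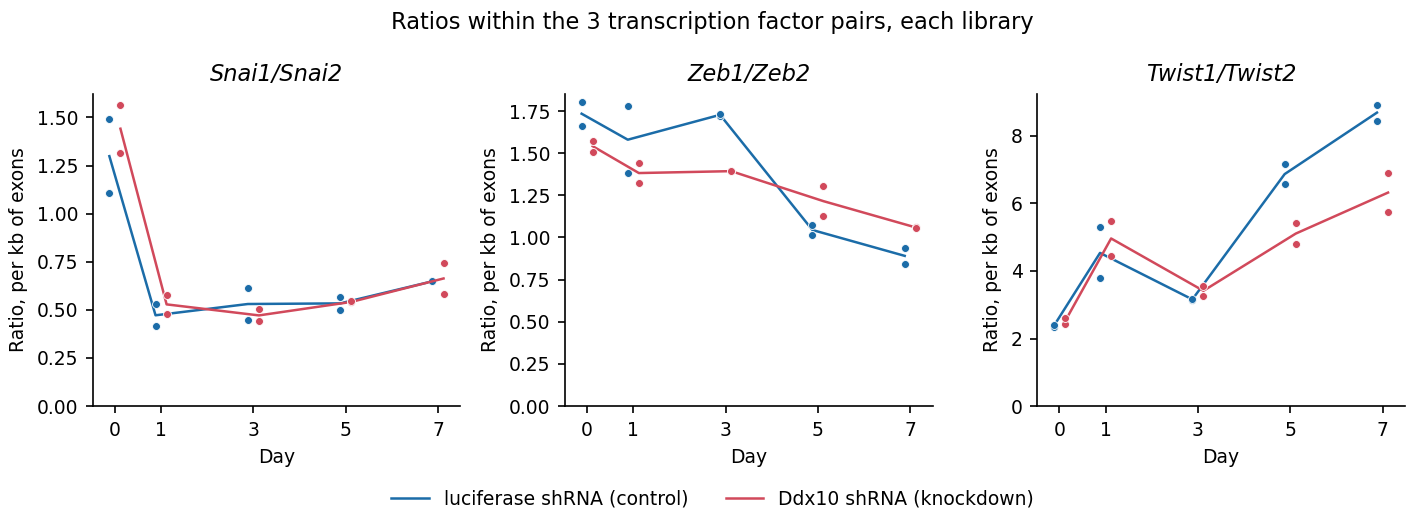
Ratio of the first to the second gene of each pair, per kilobase of merged exons, against day; points are libraries and lines join the means of 2 libraries. Snai1/Snai2 drops below 1 by day 1, Zeb1/Zeb2 declines to 0.89 in the control and 1.06 in the knockdown, and Twist1/Twist2 climbs to 8.69 and 6.32.

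Counted over all members, the course moved most of them in both arms. Against day 0 in the control, 6 of the 10 passed the threshold at day 1 (3 higher, 3 lower), 8 at day 3 (3 higher, 5 lower), 9 at day 5 (4 higher, 5 lower) and 8 at day 7 (3 higher, 5 lower). Of all genes tested, 55%, 66.2%, 70.2% and 72.3% passed on those days, so most genes of the table moved as well. The day 1 calls of Snai2 and Twist2 in the control were each lost under 6 alternatives, with adjusted p up to 0.286 and 0.339. In the knockdown arm 6, 8, 10 and 10 members passed, beside 50.1%, 60%, 64.2% and 67.1% of all genes. The members on the epithelial side had a median log2 change of 8.14 at day 7 in the control and those on the mesenchymal side one of -0.85, beside a median of 0.09 over all genes.

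Between the arms few members passed. At day 0 only Zeb2 did, beside 3.31% of all genes. At day 1 no member passed in the limma fit, beside 0.146% of all genes, when 2066 genes had an unadjusted p under 0.05. At day 3, 3 passed (Cdh1 lower, Cdh2 and Zeb2 higher; 4.77% of all genes), 1 at day 5 (Cdh1 lower; 8.73%) and 1 at day 7 (Twist2 higher; 6.17%). For the mean of all days Cdh1 and Esrp1 were lower and Cdh2 and Zeb2 higher, 4 of 10 beside 17.8% of all genes. The mean for Esrp1 included days 0 and 1, when its levels were at most a few reads. For the change from day 0, the arms differed in 0 members at day 3 (3.73% of all genes) and in 2 at day 7, Twist1 and Twist2 (6.38%). Cdh1 had differences of -1.21 (SE 0.37, adjusted p = 0.0885) and -0.78 (SE 0.37, adjusted p = 0.233) in these tests.

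The position of libraries gave the same members another description. At each of days 3, 5 and 7 both knockdown libraries lay below both controls in 3 of 3 epithelial members, beside 24.7%, 29.4% and 27.6% of all genes. They lay above both controls in 4, 5 and 5 of the 7 mesenchymal members, beside 28.7%, 27.1% and 28.6%. No epithelial member lay above and no mesenchymal member lay below on these days. At day 0, 2 mesenchymal members lay above and 2 below, and no epithelial member did either. Of all genes 22.8% lay above and 27.5% below at day 0. At day 1, 1 epithelial and 1 mesenchymal member lay below and none above, beside 18.1% and 16.6% of all genes. The summed fibroblast markers at day 0 were 343720 to 364619 in the knockdown against 418968 to 442428 in the control. At day 1 they were 212858 to 213449 against 191772 to 216866, and at day 3 141084 to 150555 against 115297 to 121929. They were 126611 to 127985 against 107346 to 125390 at day 5, and 94946 to 111112 against 92963 to 95518 at day 7. The part of these markers in the members' differences was not tested.

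**Figure D5:**
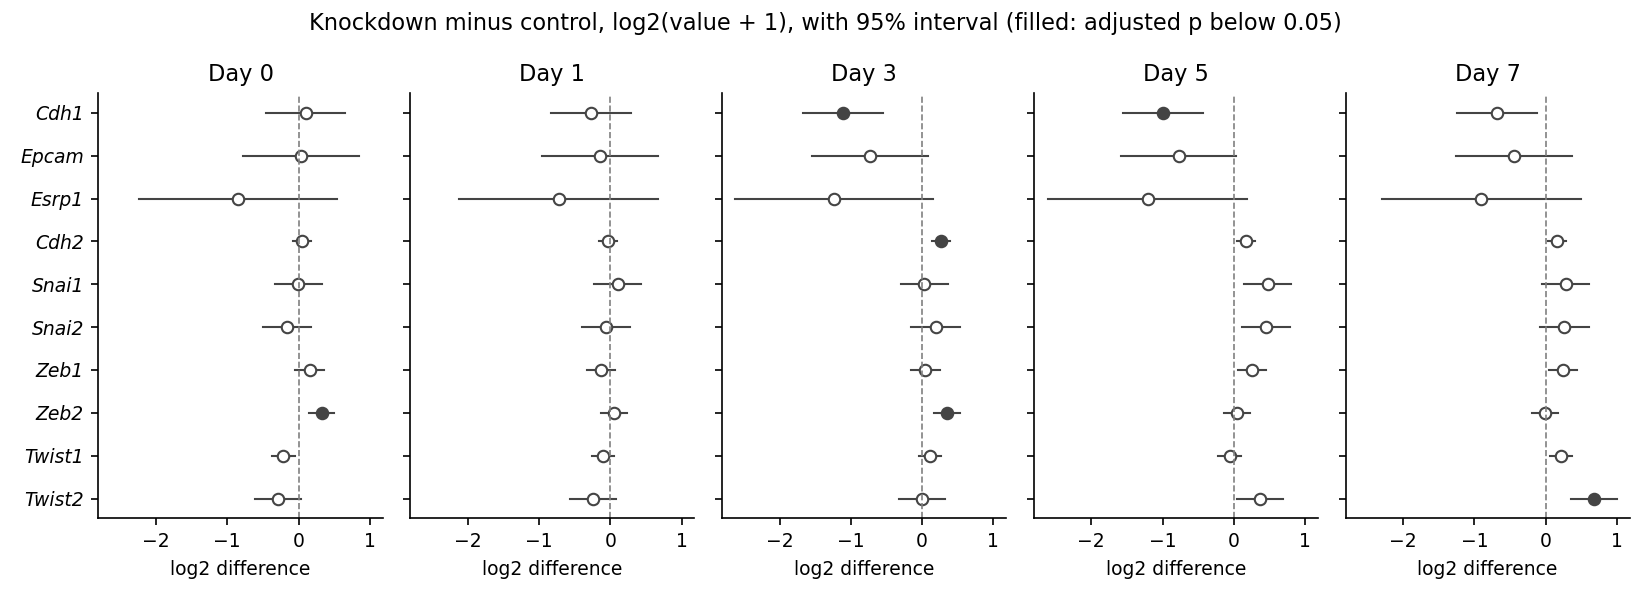
Log2(value + 1) difference, knockdown minus control, for the 10 members on each day; bars are 95% intervals of the limma fit, and filled points passed the threshold. The epithelial members have wide intervals and sit left of 0 at days 3, 5 and 7, and Cdh2 sits right of 0 on those days.

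The companion genes of the cadherins gave a mixed picture. Of all genes, 72.3% passed at day 7 in the control and 17.8% between arms for the mean of all days. Of 10 measured catenins and other cadherin partners, 5 rose and 4 fell by day 7 in the control, among them Ctnnal1, an alpha-catenin-like gene (log2 2.01, limma adjusted p = 1.01e-10), and Vcl, the vinculin gene (-2.26, adjusted p = 2.32e-13, and -1.47 with quantile scaling). For the mean of all days 1 was higher in the knockdown (Ctnnal1, 0.31, adjusted p = 0.000356) and 1 lower (Ctnnd1, which encodes a catenin of the juxtamembrane type, -0.10, adjusted p = 0.0272); the latter call was lost without any of 8 single libraries. Of 15 other cadherins, 4 rose and 7 fell by day 7 in the control, where 72.3% of all genes passed. Cdh11, a cadherin of mesenchymal cells, fell by 1.86 and Cdh3, the P-cadherin gene, by 3.46, while Cdh13 rose by 1.91. Between arms 6 of these 15 were higher in the knockdown for the mean of all days and none lower, beside 17.8% of all genes called in either direction, including Cdh11 (0.22, adjusted p = 0.00197) and Cdh6 (0.52, adjusted p = 0.00195).

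Most genes that build epithelial junctions rose, as Cdh1 did. Of 24 measured junction and polarity genes 22 rose and 1 fell by day 7 in the control, beside 72.3% of all genes called. Their median log2 change was 3.997 beside 0.09 over all genes. Pkp1, a desmosomal plakophilin, rose by 6.08 (limma adjusted p = 8.10e-17) and Crb3, an apical polarity gene, by 7.23 (adjusted p = 2.48e-11). In the knockdown 20 rose and 1 fell, beside 67.1% of all genes called. Between arms 2, 5 and 3 of the 24 were lower in the knockdown at days 3, 5 and 7 and none higher, beside 4.77%, 8.73% and 6.17% of all genes called in either direction. The median at day 5 was -0.62 beside -0.01 over all genes. Those called at day 5 included Pkp1 (-0.59, adjusted p = 0.00111), the envelope gene Ppl (-0.78, adjusted p = 0.00259) and Lsr of tricellular junctions (-0.77, adjusted p = 0.0181). The summed level of 7 keratinocyte markers was 501 to 527 in the knockdown against 368 to 376 in the control at day 3, and 495 to 549 against 668 to 852 at day 7. Within it, Dsg3, a desmosomal cadherin gene, averaged 80.1 against 234 at day 7 and Krt17 averaged 20.1 against 63.98, and none of the 7 passed the test between arms on those days. Their part in the differences of Cdh1 and Epcam was not tested.

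Of 16 epithelial transcription and splicing regulators, 13 rose and none fell by day 7 in the control, with a median of 3.57. In that comparison 72.3% of all genes passed, with a median of 0.09. The 4 with the smallest p were Elf3 (9.52, limma adjusted p = 8.47e-10), Ehf (5.75) and the grainyhead genes Grhl1 (5.59) and Grhl3 (3.57). Between arms 1 of the 16 was lower in the knockdown for the mean of all days, beside 17.8% of all genes called in either direction. It was the placode factor gene Tfap2a (-0.30, limma adjusted p = 0.0301), a call lost under 10 alternatives. Elf3 differed by -1.30 at day 5 without passing (adjusted p = 0.162). Of 13 genes for EpCAM cleavage and partners, 7 rose and 4 fell by day 7, beside 72.3% of all genes called in the control. Spint2, a serine protease inhibitor, rose by 3.87 (adjusted p = 2.10e-13). Cldn7, a claudin that binds EpCAM, was lower in the knockdown for the mean of all days (-0.87, adjusted p = 0.0383), a call lost under 18 alternatives.

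The 21 other EMT transcription regulators did not move as 1 group, with 7 higher and 12 lower at day 7 in the control. On that day 72.3% of all genes passed in the control. Foxc2 fell by 5.21 (limma adjusted p = 8.48e-12) and Prrx2 fell by 3.63. Hmga2, a chromatin architectural gene, fell by 2.502 (adjusted p = 1.20e-13). Between arms none was higher and 5 were lower in the knockdown at day 3, beside 4.77% of all genes called in either direction. At day 5, 1 was higher and 1 lower, and at day 7, 2 were higher and 0 lower, beside 8.73% and 6.17%. For the mean of all days 1 was higher and 4 were lower, beside 17.8%. Hmga2 was the one higher for the mean of all days (0.27, adjusted p = 8.48e-05), and Lef1, a Wnt effector, was among the lower (-0.45, adjusted p = 0.00295). Of 24 mesenchymal effector genes, 23 fell and 1 rose by day 7 in the control, beside the same 72.3% of all genes. Their median was -2.04, beside 0.09 over all genes. Tnc, a matrix glycoprotein gene, fell by 5.63 and Loxl2, a collagen crosslinking enzyme gene, by 4.92. Between arms 9, 12 and 9 of the 24 were higher in the knockdown at days 3, 5 and 7 and none lower, beside 4.77%, 8.73% and 6.17% of all genes called in either direction, including Tnc (0.96 at day 5, adjusted p = 1.96e-05) and Loxl2 (0.90, adjusted p = 0.000206).

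The libraries also showed how far pluripotency genes had come. The summed level of 12 such genes at day 7 was 4004 to 4301 in the control and 5174 to 5585 in the knockdown. Tdh, an enzyme gene of threonine use, made up most of that sum with means of 2363.5 and 3848, whereas Nanog stood at 252 and 188. Their part in the levels of Cdh1 and Epcam was not tested.

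The genes most like each member were taken as those with the highest Pearson correlation of log2(value + 1) over the 20 libraries, among 10996 genes with a mean of at least 100. The libraries share days and arms, so these values are descriptions. For Cdh1 they were N4bp3 (0.991), Gbp6 (0.99) and Pkp1 (0.989), for Epcam Dnah8 (0.996), Hs3st3b1 and Pipox, and for Esrp1 Ptn (0.97), Lhpp and Gpr179. For Cdh2 they were Lrrfip1 (0.985), Myof and Bdnf. Snai1 was most like Cd14 (0.989), a macrophage surface gene, Csrp2 and Serpinh1, and Snai2 most like Mdfic (0.983), Igf2 and Bin1. Zeb1 was most like Cap2 (0.973) and Twist2 most like Oaf (0.955). For Zeb2 and Twist1 the nearest genes were Gtf2a1 (0.818) and Dnph1 (0.859), further off than for the other 8 members.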

How the data were processed

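Paired-end sequencing of messenger RNA libraries made from total RNA was used, per the labels' protocols. The authors deposited 1 table of signal of the kind called normalized read counts, for 15757 genes in 20 libraries. DESeq2 1.22.0, RSEM 1.2.22, the aligner STAR 2.5.2a, the trimmer Trim Galore 0.4.4 and the build mm10 are named in the submitters' processing notes without the role or order of each. Gene filter, annotation and strand of counting are not given in the sources used here. Only 45.7 to 63.9% of low values (up to 20 steps) lay within 0.1 of a whole number of steps, so whole reads were not recovered and no test for counts was run. The depth is therefore approximate, and low values such as those of Esrp1 are a few reads.

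Values were transformed to log2(value + 1), which understates the change of low genes. All 20 libraries entered 1 fit of 10 group means in limma 3.58.1 (R 4.3.3; trend and robust; residual degrees of freedom 10), after a filter of at least 1 in at least 2 libraries. P-values were adjusted over 15757 genes by Benjamini and Hochberg, with a threshold of 0.05, for 16 comparisons. The fit was also run on simulated data, in which each gene had 1 spread for all groups and no change over the days. Unequal spread between groups, as seen for Cdh1 and Epcam at day 0, was thus not covered.

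All members are named, with Ddx10, the 4 genes of each companion list with the smallest p for control day 7 and the 2 with the smallest for the mean of all days, cell type markers beside the results they touch, and the 3 genes most like each member; some of these genes are left out for length. The members and the lists were chosen with earlier results of these data known. Positions come from GENCODE for mm10, and promoter windows from RefSeq (GRCm38.p6), in which 5 of the 10 members matched. Blank or date-like symbols of 24 genes were restored from their identifiers. Alternatives were quantile scaling, pseudocounts of 0.1 and 5, other filters, fits on the compared libraries, replicate blocks, library weights and leaving out libraries.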

Additional observations from a re-analysis of the deposited data

Results flagged for a closer look

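The change of Twist1 from day 0 to day 7 differed between the arms by 0.43 on the log2(value + 1) scale (SE 0.11, limma adjusted p = 0.0259). It stood out because the difference between the arms was itself tested and passed. The call was lost without any 1 of 7 of its 8 libraries (adjusted p 0.0517 to 0.0997), and the direct differences between arms did not pass at day 7 (0.22, adjusted p = 0.111) or day 0 (-0.21, adjusted p = 0.123). In the control Twist1 went from 1548 and 1588 to 1456 and 1432 normalized read counts, and in the knockdown from 1343 and 1362 to 1755 and 1604.

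Twist2 stood out by the same test, with a difference of 0.97 (SE 0.21, limma adjusted p = 0.0148). That call was lost without control replicate 1 (adjusted p = 0.0632) or knockdown replicate 2 (0.0739) of day 7. Its control libraries went from 1284 and 1290.4 to 318 and 330.3, and its knockdown libraries from 1084 and 1024 to 496 and 544. For both genes the knockdown libraries lay below both controls at day 0 and above both at day 7. Of all genes, 27.5% lay below at day 0 and 28.6% lay above at day 7.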

How the results depend on the processing

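Over 160 member results and 2466 alternatives, 2331 stayed on the same side of the threshold, 93 lost a call, 42 gained one and 0 called values reversed. Of the 2331, 2273 kept their sign and 58, not called in either fit, changed it. Between arms at day 0 the count of members called went from 1 to 0 with quantile scaling, a pseudocount of 5, the replicate block, the block nested in day, library weights and a fit on the compared libraries. At day 5 it went from 1 to 2 with quantile scaling and with the nested block, 3 with a pseudocount of 5, and 4 with library weights and with the compared libraries. At day 7 it went from 1 to 2 with the nested block, 5 with weights and 4 with the compared libraries. Without all day 0 libraries, chosen after seeing the data, it was 2 at both days. Without all day 1 libraries, also chosen after seeing the data, the count at day 5 stayed at 1, with Cdh1 lost (adjusted p = 0.0592) and Twist2 gained (0.0441). For the difference between arms in the change to day 3 it went from 0 to 1 with the nested block. The calls over all genes moved as well. With quantile scaling they went from 393 higher and 128 lower to 248 and 56 at day 0. At day 5 they went from 919 higher and 457 lower to 1171 and 599. Counts over all genes under the other alternatives are not given here, so these member counts may follow the whole table.

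Leaving out 1 replicate gave 0 to 0 members called between arms at days 0, 3 and 5, 0 to 1 at day 7, 5 to 8 for the control at day 3, and 0 to 2 and 0 to 3 for the difference between arms in the change to days 3 and 7. Counts over all genes in these fits are not given here, so calls lost without 1 library may follow the whole table. The differences between arms called on single days with all 20 libraries kept their sign in these fits. Cdh1 ranged from -1.21 to -1.01 at day 3 and from -1.05 to -0.93 at day 5. Zeb2 ranged from 0.26 to 0.39 at day 0 and from 0.28 to 0.43 at day 3. Cdh2 ranged from 0.24 to 0.28 at day 3 and Twist2 from 0.61 to 0.75 at day 7. Same-numbered libraries correlated at -0.05 to 0.08 in their deviations, so the numbers were not taken to pair the samples. The replicate block gave 0 members between arms at day 0 and moved no other count of members by over 1.5 times. The causes were not tested. What could be detected differed by gene: the SE of a difference on 1 day was 0.06 for Cdh2 and 0.65 for Esrp1, which stood at a few reads before day 5.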
